A study of Sus scrofa with 8 samples.

Results

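The creatine kinases and adenine nucleotide enzymes described here are 8 genes, taken as the rows of the deposited count table named CKM, CKB, CKMT2, GATM, GAMT, AK1, AMPD3 and ADSL. Each symbol was found on 1 row, out of 31014 rows in all, and all 8 were protein-coding and passed the filter on low counts. The table holds messenger RNA of heart tissue from wild-type miniature pigs given doxorubicin (5 libraries), an anthracycline used against cancer that is known to injure the heart, or vehicle (3 libraries). The sources used here do not give the part of the heart, the dose, the schedule, or the age and sex of the animals. They do not say that each library stands for an animal of its own, and the p-values therefore reflect only the spread among these samples, which may be technical. The comparison asks how expression in the heart after doxorubicin differed from that after vehicle.

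A heart muscle cell stores energy as phosphocreatine, which creatine kinase makes from creatine and ATP and turns back into ATP where the cell works. Creatine itself is made by GATM and GAMT, mainly in kidney and liver, and enters muscle through the carrier SLC6A8. When ADP accumulates, adenylate kinase turns a pair of ADP molecules into ATP and AMP. AMP deaminase removes AMP as IMP, and adenylosuccinate synthase and lyase turn IMP back into AMP. A low ratio of phosphocreatine to ATP is a known feature of failing hearts.

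Levels are CPM, read counts relative to library size after TMM scaling, which corrects for differences in composition between libraries, and fold changes are doxorubicin over vehicle from edgeR's quasi-likelihood test. A gene was called at a Benjamini-Hochberg adjusted p under 0.05 over all 14938 tested genes. Library totals ran from 17442566 to 18267178 counts after doxorubicin and from 16105242 to 17195538 counts in vehicle. Libraries of 1 group differed by 17.2 to 284 times the sampling noise (chi-square per degree of freedom), so none was counted as a copy. Summed cardiomyocyte markers were at 45359 CPM in doxorubicin 3 and 35744 CPM in doxorubicin 5, against 62422 to 69273 CPM in the other doxorubicin libraries and 71636 to 75547 CPM in vehicle. Of these 13 markers 2 fell (RYR2 and PLN) and 11 did not pass, and none was at 0 in any group. Markers particular to skeletal muscle (MYH1, MYH2, MYH4, TNNT3, TNNI2, ACTN3 and MYLPF) were at 0 in vehicle, with TNNI2 called higher after doxorubicin, and the atrial marker BMP10 was at 0 in all libraries. In bulk tissue, fewer cells of a type and less RNA per cell cannot be told apart.

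Of the 8 genes, CKB rose, CKM, GATM, AMPD3 and ADSL fell, and CKMT2, GAMT and AK1 did not pass. The background was high: 13.6% of all tested genes rose and 11.3% fell, 24.9% together. Groups of libraries did not overlap for 5 of the 8 genes, the 5 that were called, where 34.9% of all tested genes had groups that did not overlap. Scaling by library size alone, which leaves out the TMM factors (1.05 to 1.18 after doxorubicin, 0.839 to 0.874 in vehicle), moved the median log2 fold change of all genes by 0.36 and the split of calls to 4093 higher and 499 lower, against 2033 higher and 1681 lower with TMM. With that scaling CKB and GAMT rose, GATM alone of the 8 fell, and CKM, AMPD3 and ADSL kept negative fold changes that did not pass.

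**Figure D1:**
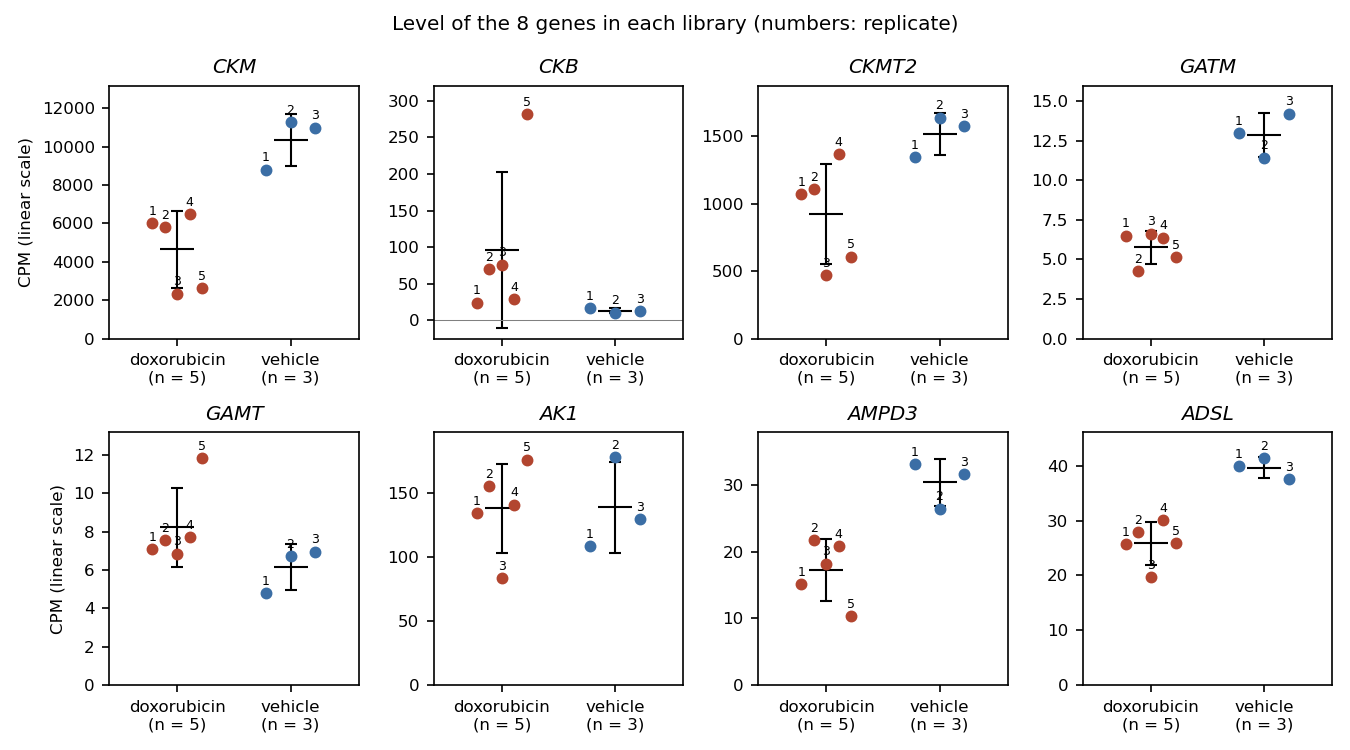
Level of each of the 8 genes in CPM (linear axis from 0, or from below 0 for CKB to hold its error bar) in the 5 doxorubicin and 3 vehicle libraries, each point 1 library with its replicate number, and bars the mean and SD. The groups do not overlap for CKM, CKB, GATM, AMPD3 and ADSL, and doxorubicin 5 lies far above the others for CKB.

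Expressed per kilobase of gene length as deposited, the genes span a wide range of levels. In doxorubicin libraries CKM stood at 2033 ± 875 CPM per kb, followed by CKMT2 at 435 ± 176, AK1 at 70.0 ± 17.5, CKB at 59.5 ± 65.7, ADSL at 17.5 ± 2.64, GAMT at 6.33 ± 1.58, GATM at 2.62 ± 0.473 and AMPD3 at 1.67 ± 0.452 CPM per kb (SD, n = 5). In vehicle libraries the order was CKM at 4523 ± 594 CPM per kb, CKMT2 at 715 ± 73.0, AK1 at 70.4 ± 18.0, ADSL at 26.9 ± 1.30, CKB at 8.39 ± 2.01, GATM at 5.84 ± 0.631, GAMT at 4.74 ± 0.920 and AMPD3 at 2.95 ± 0.339 CPM per kb (SD, n = 3). CKB thus stood next to AK1 in doxorubicin libraries and next to GATM in vehicle libraries. After doxorubicin the mean of CKB differed from those of its neighbours AK1 and ADSL by less than the SD of CKB. In vehicle the range of the mean ± SD of GATM overlapped those of its neighbours CKB and GAMT at their edges, though the means differed by more than the SD of either gene. The sequences of these genes and proteins were not used here.

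CKM encodes the muscle creatine kinase of the cytosol, which sits at the M-line and at the pumps of the sarcoplasmic reticulum (chromosome 6, 51704021 to 51716935, Sscrofa11.1). It was at 6024, 5793, 2330, 6480 and 2627 CPM in doxorubicin 1 to 5, and at 8788, 11270 and 10989 CPM in vehicle 1 to 3. Every doxorubicin library lay below every vehicle library, and doxorubicin 3 and 5 were the lowest. The mean was 4651 ± 2001 CPM after doxorubicin and 10349 ± 1359 CPM in vehicle (SD, n = 5 and n = 3), or −1.15 on the log2 scale (SE 0.37, adjusted p = 0.0478). The call lay close to the threshold and was lost without TMM factors (adjusted p = 0.103), without a filter (0.0566), with a replicate block (0.0563), and on leaving out doxorubicin 2 (0.0665), doxorubicin 3 (0.0684), vehicle 1 (0.108), vehicle 2 (0.130) or vehicle 3 (0.142).

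CKMT2, the sarcomeric creatine kinase of mitochondria, makes phosphocreatine from newly exported ATP (chromosome 2, 89796470 to 89830293). Its levels were 1072, 1108, 468 and 1366 CPM in doxorubicin 1 to 4 and 608 CPM in doxorubicin 5, against 1345, 1639 and 1577 CPM in vehicle 1 to 3. Doxorubicin 3 and 5 were the lowest libraries here as well, but doxorubicin 4 lay above vehicle 1, so the groups overlapped. CKMT2 averaged 925 ± 374 CPM after doxorubicin and 1520.4 ± 155 CPM in vehicle, and the change of −0.72 on the log2 scale (SE 0.34, adjusted p = 0.138) did not pass. It passed with limma voom and sample weights (−0.54, SE 0.19, adjusted p = 0.0304).

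CKMT2 reads per CKM read give a measure free of library scaling. The log2 ratio was −2.49, −2.39, −2.31, −2.25 and −2.11 in doxorubicin 1 to 5, and −2.71, −2.78 and −2.80 in vehicle 1 to 3. All 5 doxorubicin libraries lay above all 3 vehicle libraries. The difference was 0.45 on the log2 scale (two-sided exact permutation p = 0.0357, the smallest that 56 splits of 8 libraries allow, and 0.0595 after adjustment over the 5 ratios computed), so it did not pass.

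CKB encodes the brain-type creatine kinase of the cytosol, found in brain and smooth muscle and in the fetal heart (on a scaffold not placed on a chromosome, 2070843 to 2074141). It had 24.2, 70.3, 76.1, 29.1 and 282 CPM in doxorubicin 1 to 5, and 17.1, 10.7 and 12.9 CPM in vehicle 1 to 3. Doxorubicin 5 was the highest by far, and doxorubicin 1 and 4 lay closest to vehicle. The spread among doxorubicin libraries, 11.7-fold from lowest to highest, was the widest of the 8 genes. CKB averaged 96.3 ± 106 CPM after doxorubicin and 13.6 ± 3.26 CPM in vehicle, and its log2 fold change was 2.83 (SE 0.82, adjusted p = 0.0353). It was 1.88 (SE 0.46, adjusted p = 0.0190) on leaving out doxorubicin 5, and 1.97 with limma voom and sample weights. The call was lost without a filter (adjusted p = 0.109), without doxorubicin 2 (0.0523) or 3 (0.0534), and without any 1 vehicle library (0.103 to 0.114).

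The log2 ratio of CKB to CKM reads was −7.96, −6.36, −4.94, −7.80 and −3.22 in doxorubicin 1 to 5, and −9.00, −10.03 and −9.73 in vehicle 1 to 3. The groups were separate, with a difference of 3.53 on the log2 scale (exact permutation p = 0.0357, adjusted p = 0.0595 over the 5 ratios). Without doxorubicin 5 the difference was 2.82. Doxorubicin 3 and 5 combined the lowest CKM levels with the highest CKB levels.

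As a share of all creatine kinase transcripts per kb, CKM made up 79.4% ± 4.74 after doxorubicin and 86.2% ± 0.451 in vehicle. CKMT2 made up 17.2% ± 0.917 after doxorubicin and 13.7% ± 0.392 in vehicle. CKB made up 0.473%, 1.40%, 3.65%, 0.514% and 10.8% in doxorubicin 1 to 5, and 0.236%, 0.116% and 0.143% in vehicle 1 to 3. The muscle forms thus remained the bulk of the pool in all 8 libraries. The summed pool was 3152, 3097, 1286, 3493 and 1608 CPM per kb in doxorubicin 1 to 5, and 4484, 5704 and 5553 CPM per kb in vehicle 1 to 3. CKMT1A, the ubiquitous mitochondrial form, had 3 reads in doxorubicin 2, 1 read in doxorubicin 3 and 0 reads in the other 6 libraries, and was not tested. A count of 0 allows up to 0.164 CPM after doxorubicin and up to 0.214 CPM in vehicle (3 reads per library, counting error only).

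**Figure D2:**
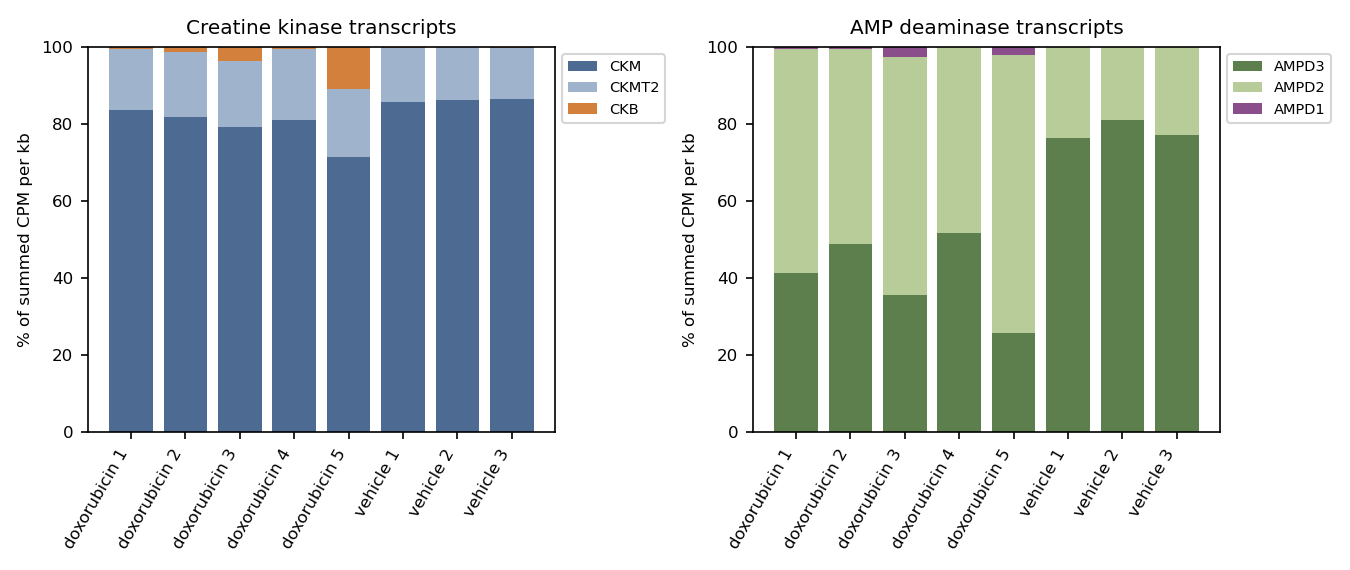
Share of each gene in the summed CPM per kb of the creatine kinases (left) and AMP deaminases (right), each bar 1 library, doxorubicin to the left of vehicle, with CKMT1A too low to draw. CKB reaches 10.8% of the creatine kinase pool in doxorubicin 5, and AMPD3 makes up 25.8% to 51.6% of the AMP deaminase pool after doxorubicin and 76.5% to 80.9% in vehicle.

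Markers of other cell types differed between the groups beside CKB and CKM. The 10 fibroblast markers summed to 3073, 4860, 7537, 2734 and 31633 CPM in doxorubicin 1 to 5, and to 1654, 1452 and 1695 CPM in vehicle 1 to 3. Of these, COL1A1, COL3A1, LUM and POSTN rose, PDGFRA fell and 5 did not pass, and none was at 0 in either group. The libraries with the most CKB, doxorubicin 5, 3 and 2, were in the same order those with the highest fibroblast marker sum. COL1A1, COL1A2, COL3A1, LUM and POSTN followed that order, and DCN, PDGFRA, DPT, FBLN1 and TCF21 did not. In doxorubicin 5 most of the sum came from COL1A1, COL1A2, COL3A1 and POSTN (6607, 7563, 11487 and 4544 CPM). Smooth muscle and pericyte markers summed to 5625, 9392, 9535, 6239 and 10148 CPM in doxorubicin 1 to 5. In vehicle they summed to 5001 to 5573 CPM, with 3 of 10 higher and 1 lower after doxorubicin. Doxorubicin 5, 3 and 2 were in that order the highest for this sum as well, so the order was not particular to fibroblast markers. ACTA2 and TAGLN followed it, and the other markers of this list did not. Most of the smooth muscle and pericyte sum was DES, which did not pass (adjusted p = 0.152). DES averaged 6116 CPM of a mean sum of 8188 CPM after doxorubicin, and 4148 CPM of 5205 CPM in vehicle. The sum therefore mainly reflects DES and says little about the other markers of its list. Macrophage markers summed to 246 to 724 CPM after doxorubicin and 143 to 191 CPM in vehicle, with 7 of 10 higher. Markers of Schwann cells and nerve, a tissue rich in CKB, summed to 80.1 to 130 CPM after doxorubicin and 110 to 153 CPM in vehicle, with 2 of 10 lower. The part of these cell types in the change of CKB was not tested.

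**Figure D3:**
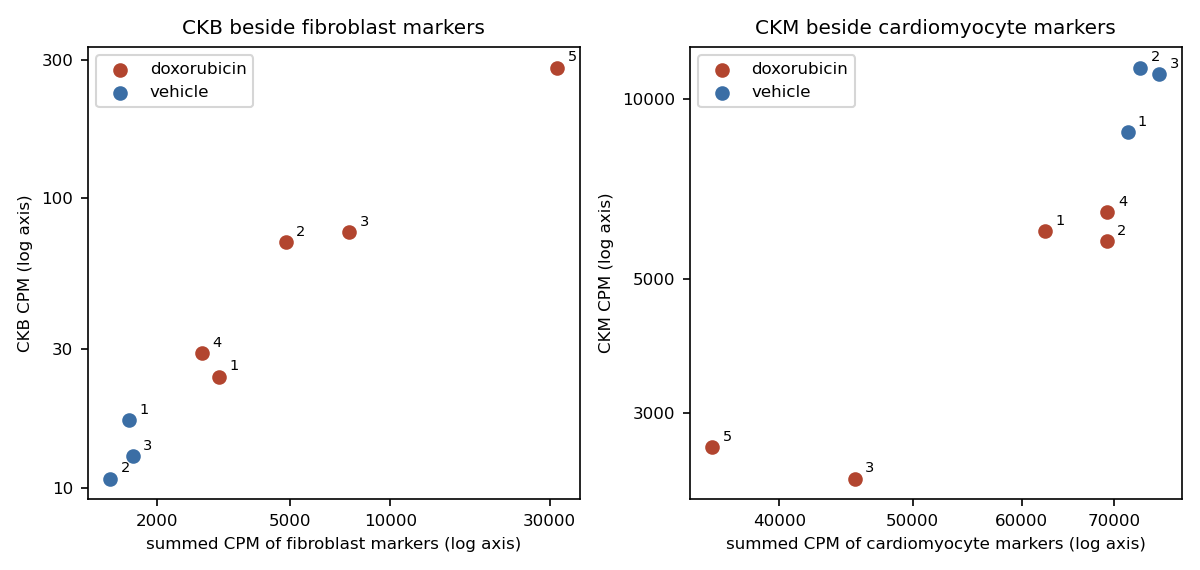
CKB against the summed CPM of 10 fibroblast markers (left) and CKM against that of 13 cardiomyocyte markers (right), both axes logarithmic, each point 1 library with its replicate number. Doxorubicin 5 has 282 CPM of CKB and 31633 CPM of fibroblast markers, and doxorubicin 3 and 5 lie lowest for CKM and for cardiomyocyte markers.

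Levels set against cardiomyocyte markers of the same library separate some of the 8 genes from the rest. The measure is the log2 CPM of a gene minus the mean log2 CPM of the 13 markers, and it was added after the data were seen. For CKM it averaged 0.84 ± 0.31 after doxorubicin and 1.54 ± 0.16 in vehicle, a difference of −0.71 with groups that did not overlap. For CKMT2 the difference was −0.25, for GATM −0.60, for AMPD3 −0.29 and for ADSL −0.06, and in each of these 4 genes the groups overlapped. GAMT differed by 0.97 and CKB by 2.83, both without overlap, and AK1 by 0.55 with overlap. For ADSL the value of −0.06 compares with −0.62 from the fit over all genes. The 13 markers did not move alike. In that fit 11 of them had negative log2 fold changes, and RYR2 (−1.82) and PLN (−1.48) were called lower. TNNT2 (0.63) and CSRP3 (0.55) had positive values that did not pass. The measure therefore depends on which markers it holds. The part of the cardiomyocyte markers in these results was not tested.

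GATM, the amidinotransferase of mitochondria that makes guanidinoacetate from arginine and glycine, carries out the first step of creatine synthesis (chromosome 1, 126361968 to 126378705). It had 6.49, 4.24, 6.63, 6.38 and 5.15 CPM in doxorubicin 1 to 5, and 13.0, 11.4 and 14.2 CPM in vehicle 1 to 3. The groups were well apart, and the 5 doxorubicin libraries lay close together, with 84 to 142 reads each. GATM averaged 5.78 ± 1.04 CPM after doxorubicin and 12.9 ± 1.39 CPM in vehicle, or −1.16 on the log2 scale (SE 0.20, adjusted p = 0.00794). The doxorubicin libraries lowest in CKM, 3 and 5, were not the lowest here; doxorubicin 2 was. Of the 8 genes GATM alone was called under all 16 other settings tried, with an adjusted p of up to 0.0467, reached without vehicle 3.

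GAMT, the methyltransferase that completes creatine synthesis (chromosome 2, 77076566 to 77079751), had 7.09, 7.58, 6.86, 7.73 and 11.9 CPM in doxorubicin 1 to 5, and 4.79, 6.73 and 6.97 CPM in vehicle 1 to 3. Doxorubicin 3 lay just below vehicle 3, so the groups overlapped, and doxorubicin 5 was the highest. The log2 fold change was 0.42 (SE 0.25, adjusted p = 0.233) and did not pass, but it was 0.77 without TMM factors (adjusted p = 0.0437). The log2 ratio of GATM to GAMT reads was −0.13, −0.83, −0.05, −0.28 and −1.20 in doxorubicin 1 to 5, and 1.43, 0.76 and 1.03 in vehicle 1 to 3. GATM reads were fewer than GAMT reads in every doxorubicin library and more in every vehicle library (difference −1.57, exact permutation p = 0.0357, adjusted p = 0.0595 over the 5 ratios). These reads were not corrected for gene length (2207 bases for GATM, 1300 for GAMT). Which gene is ahead in a library depends on that correction, while the difference between groups does not. SLC6A8, the creatine carrier of the plasma membrane, was at 82.7 ± 22.8 CPM after doxorubicin and 77.3 ± 1.81 CPM in vehicle and did not pass (log2 fold change 0.10, SE 0.24, adjusted p = 0.785). Of the 6 tested genes of creatine synthesis, transport and kinases 1 rose, 2 fell and 3 did not pass. Of all tested genes 13.6% rose and 11.3% fell. All of these 6 but SLC6A8 are among the 8 genes, so the count largely repeats them. Their median log2 fold change was −0.31, against 0.02 over all tested genes, but only 3 of the 6 had negative values.

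AK1 encodes the adenylate kinase of the muscle cytosol (chromosome 1, 268355032 to 268365659). It was at 134, 155, 83.2, 140 and 176 CPM in doxorubicin 1 to 5, and at 108, 178 and 129 CPM in vehicle 1 to 3. The ranges overlapped almost fully, with the lowest value in doxorubicin 3 and the highest in vehicle 2. AK1 averaged 138 ± 34.4 CPM after doxorubicin and 138 ± 35.4 CPM in vehicle, or −0.01 on the log2 scale (SE 0.25, adjusted p = 0.985), and the sign turned under 8 of the 16 other settings. Among the other adenylate kinases AK3, which uses GTP in the mitochondrial matrix, fell (log2 fold change −0.72, SE 0.14, adjusted p = 0.00972). AK3 had 99.4, 108, 97.5, 94.5 and 83.4 CPM in doxorubicin 1 to 5, and 164, 161 and 153 CPM in vehicle 1 to 3. The groups were far apart relative to their spread, but AK3 did not pass without TMM factors (adjusted p = 0.0701) or without vehicle 1 (0.0513). AK4, of the matrix, had 6.60, 9.30, 8.92, 7.52 and 56.7 CPM in doxorubicin 1 to 5, and 6.36, 3.68 and 7.75 CPM in vehicle 1 to 3, and did not pass (adjusted p = 0.159). Of 8 tested adenylate kinases 1 fell and 7 did not pass, where 11.3% of all tested genes fell. Their median log2 fold change was −0.27, with 5 of the 8 negative.

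AMPD3, the AMP deaminase of red cells and several other tissues, is the only form of its family among the 8 genes (chromosome 2, 49026695 to 49084982). It had 15.1, 21.8, 18.2, 20.8 and 10.3 CPM in doxorubicin 1 to 5, and 33.1, 26.5 and 31.6 CPM in vehicle 1 to 3. All doxorubicin libraries lay below all vehicle libraries, and doxorubicin 5 was the lowest. AMPD3 averaged 17.2 ± 4.66 CPM after doxorubicin and 30.4 ± 3.49 CPM in vehicle, or −0.82 on the log2 scale (SE 0.23, adjusted p = 0.0316). The call was lost without TMM factors (adjusted p = 0.163) and on leaving out doxorubicin 1 (0.0527), doxorubicin 3 (0.0561), vehicle 1 (0.119), vehicle 2 (0.0581) or vehicle 3 (0.107). Erythrocyte markers summed to 6.95 to 87.0 CPM after doxorubicin and 39.1 to 97.3 CPM in vehicle, with 2 of 5 tested and neither called, and their part in the AMPD3 result was not tested.

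AMPD2, the deaminase form of liver and many other tissues, moved the other way. It had 9.71, 10.3, 14.4, 8.87 and 13.1 CPM in doxorubicin 1 to 5, and 4.64, 2.84 and 4.27 CPM in vehicle 1 to 3. Every doxorubicin library lay above every vehicle library. AMPD2 rose by 1.52 on the log2 scale (SE 0.26, adjusted p = 0.00756) and was called under all 16 other settings, with an adjusted p of up to 0.0426 without vehicle 3. AMPD1, the form of skeletal muscle, had 1, 1, 7, 0 and 4 reads in doxorubicin 1 to 5 and 0 reads in each vehicle library, and was not tested. With so few AMPD1 reads the ratio of AMPD3 to AMPD1 has little weight (difference −2.43 on the log2 scale, −0.90 with a pseudocount of 5, exact permutation p = 0.0714, adjusted p = 0.0893). Of the summed AMP deaminase transcripts per kb, AMPD3 made up 40.6% ± 10.4 after doxorubicin and 78.2% ± 2.40 in vehicle, and AMPD2 58.2% ± 9.52 after doxorubicin and 21.8% ± 2.40 in vehicle. Without a correction for length AMPD3 made up 59.5% after doxorubicin and 88.7% in vehicle. The summed level of the family, 4.13 ± 0.545 CPM per kb after doxorubicin and 3.79 ± 0.542 CPM per kb in vehicle, overlapped between the groups.

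ADSL encodes adenylosuccinate lyase, which acts both in the purine nucleotide cycle and in purine synthesis (chromosome 5, 8027799 to 8045480). It was at 25.8, 27.9, 19.7, 30.1 and 25.9 CPM in doxorubicin 1 to 5, and at 40.0, 41.4 and 37.6 CPM in vehicle 1 to 3. The highest doxorubicin library was below the lowest vehicle library, and the spread within vehicle was the smallest of the 8 genes at 4.83% of the mean. ADSL averaged 25.8 ± 3.89 CPM after doxorubicin and 39.7 ± 1.91 CPM in vehicle, or −0.62 on the log2 scale (SE 0.16, adjusted p = 0.0215). The call was lost without TMM factors (adjusted p = 0.184) and on leaving out vehicle 1 (0.0799), vehicle 2 (0.0679) or vehicle 3 (0.0711). ADSSL1 (now ADSS1), the synthase of muscle that acts before ADSL in the cycle, was at 81.4 ± 21.9 CPM after doxorubicin and 132 ± 7.46 CPM in vehicle, without overlap, and did not pass (log2 fold change −0.70, SE 0.24, adjusted p = 0.0582). The result lay near the threshold. ADSSL1 passed under 4 of the 16 other settings: DESeq2 (adjusted p = 0.0309), limma voom (0.00122), the replicate block (0.0492) and without doxorubicin 5. Without TMM factors its adjusted p was 0.292. ADSS (now ADSS2), the synthase of other tissues, had a log2 fold change of 0.19 (adjusted p = 0.641), and its sign turned with limma, with a replicate block and without doxorubicin 5. The log2 ratio of ADSL to ADSSL1 reads differed by 0.12 (exact permutation p = 0.929), with −1.61 ± 0.51 after doxorubicin and −1.73 ± 0.14 in vehicle. Of the 5 tested genes of AMP deamination and the purine nucleotide cycle 1 rose, 2 fell and 2 did not pass. Of all tested genes 13.6% rose and 11.3% fell. The 2 that fell are AMPD3 and ADSL, both already among the 8 genes. The median log2 fold change of this short list, −0.62, is the value of ADSL itself.

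**Figure D4:**
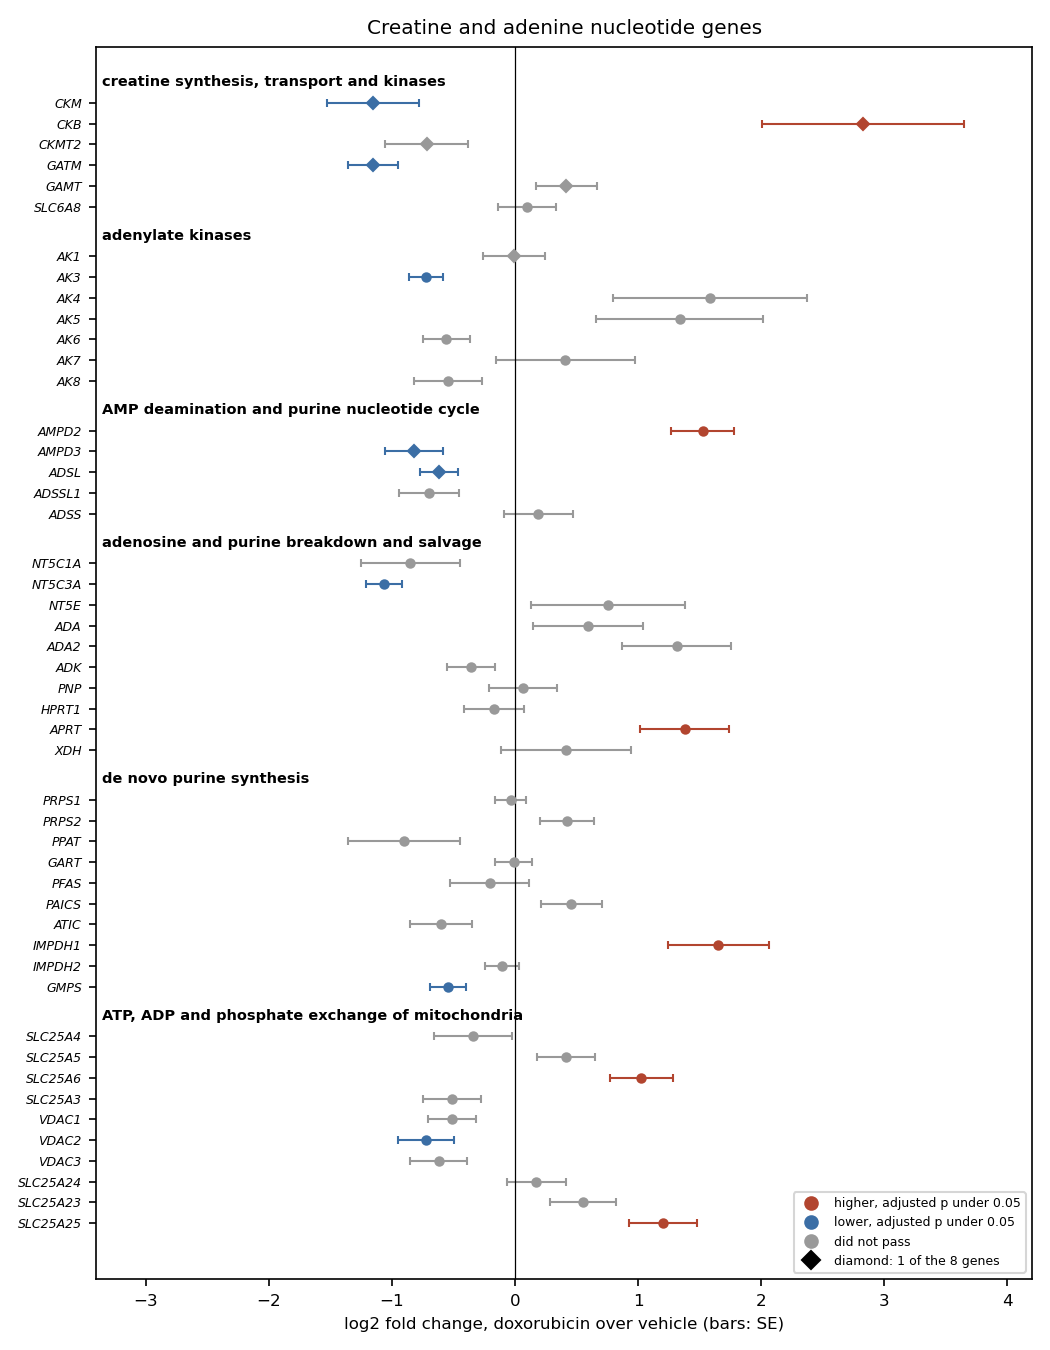
Log2 fold change (doxorubicin over vehicle) with its SE for the tested genes of the 6 lists that are reported here, each gene drawn once, diamonds for the 8 genes and circles for others, red for higher, blue for lower and grey for genes that did not pass. CKB lies furthest to the right at 2.83, and CKM and GATM furthest to the left near −1.15.

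Calls among the other genes of purine and ATP supply went in both directions. Of all tested genes 13.6% rose and 11.3% fell. The counts in the lists below are near those shares and do not set these lists apart. Among 11 tested genes of purine synthesis 1 rose, 2 fell and 8 did not pass (median log2 fold change −0.11). IMPDH1, which commits IMP to guanine nucleotides, rose (1.65, SE 0.41, adjusted p = 0.0206), with 11.5, 11.2, 17.7, 10.1 and 29.7 CPM in doxorubicin 1 to 5 and 3.21, 6.03 and 6.04 CPM in vehicle 1 to 3. GMPS, the next enzyme on that branch, fell (−0.54, SE 0.15, adjusted p = 0.0273), and ADSL was the other that fell. IMPDH1 and GMPS were thus called in opposite directions. IMPDH2, the other form of the IMPDH step, had higher levels and did not pass (−0.11, SE 0.14, adjusted p = 0.605). It was at 63.1 ± 5.03 CPM after doxorubicin and 67.9 ± 8.46 CPM in vehicle. IMPDH1 was not called without any 1 vehicle library (adjusted p up to 0.0942). GMPS was not called then either (up to 0.113), nor without doxorubicin 2 (0.0554) or TMM factors (0.320).

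Among 10 tested genes of purine breakdown and salvage 1 rose, 1 fell and 8 did not pass (median log2 fold change 0.24). NT5C3A, a nucleotidase that acts chiefly on pyrimidine nucleotides, fell to 14.8 ± 1.86 CPM after doxorubicin, against 30.9 ± 0.483 CPM in vehicle (log2 fold change −1.06, SE 0.14, adjusted p = 0.00525), and was called under all 16 other settings. APRT, which salvages adenine to AMP, rose to 22.4 ± 10.3 CPM after doxorubicin, against 8.63 ± 2.79 CPM in vehicle (1.38, SE 0.36, adjusted p = 0.0247), but was not called without vehicle 1 or vehicle 3 (adjusted p up to 0.111).

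Carriers that exchange ATP, ADP and phosphate across the mitochondrial membranes had 2 higher, 1 lower and 7 not passing of 10 tested (median log2 fold change −0.09). SLC25A4, the ADP/ATP carrier of heart and muscle, had 3183, 3174, 1417, 3507 and 2134 CPM in doxorubicin 1 to 5, and 2765, 4127 and 3323 CPM in vehicle 1 to 3. The ranges overlapped, doxorubicin 3 and 5 were again the lowest, and the value of −0.34 on the log2 scale (SE 0.32, adjusted p = 0.443) did not pass and was near 0 without TMM factors. SLC25A6, another ADP/ATP carrier, rose (1.03, SE 0.26, adjusted p = 0.0204), at 445 ± 104 CPM after doxorubicin and 218 ± 53.2 CPM in vehicle. SLC25A25, an ATP-magnesium and phosphate carrier, rose (1.20, SE 0.27, adjusted p = 0.0159). VDAC2, a channel of the outer membrane, fell (−0.72, SE 0.23, adjusted p = 0.0438), but was not called without TMM factors, without a filter, or on leaving out doxorubicin 1, 2 or 3 or any 1 vehicle library (adjusted p up to 0.195). SLC25A6 was not called without vehicle 1 or vehicle 3 (adjusted p up to 0.0985) or with a replicate block (0.0531), and SLC25A25 was not called without either of these vehicle libraries (up to 0.0769).

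**Figure D5:**
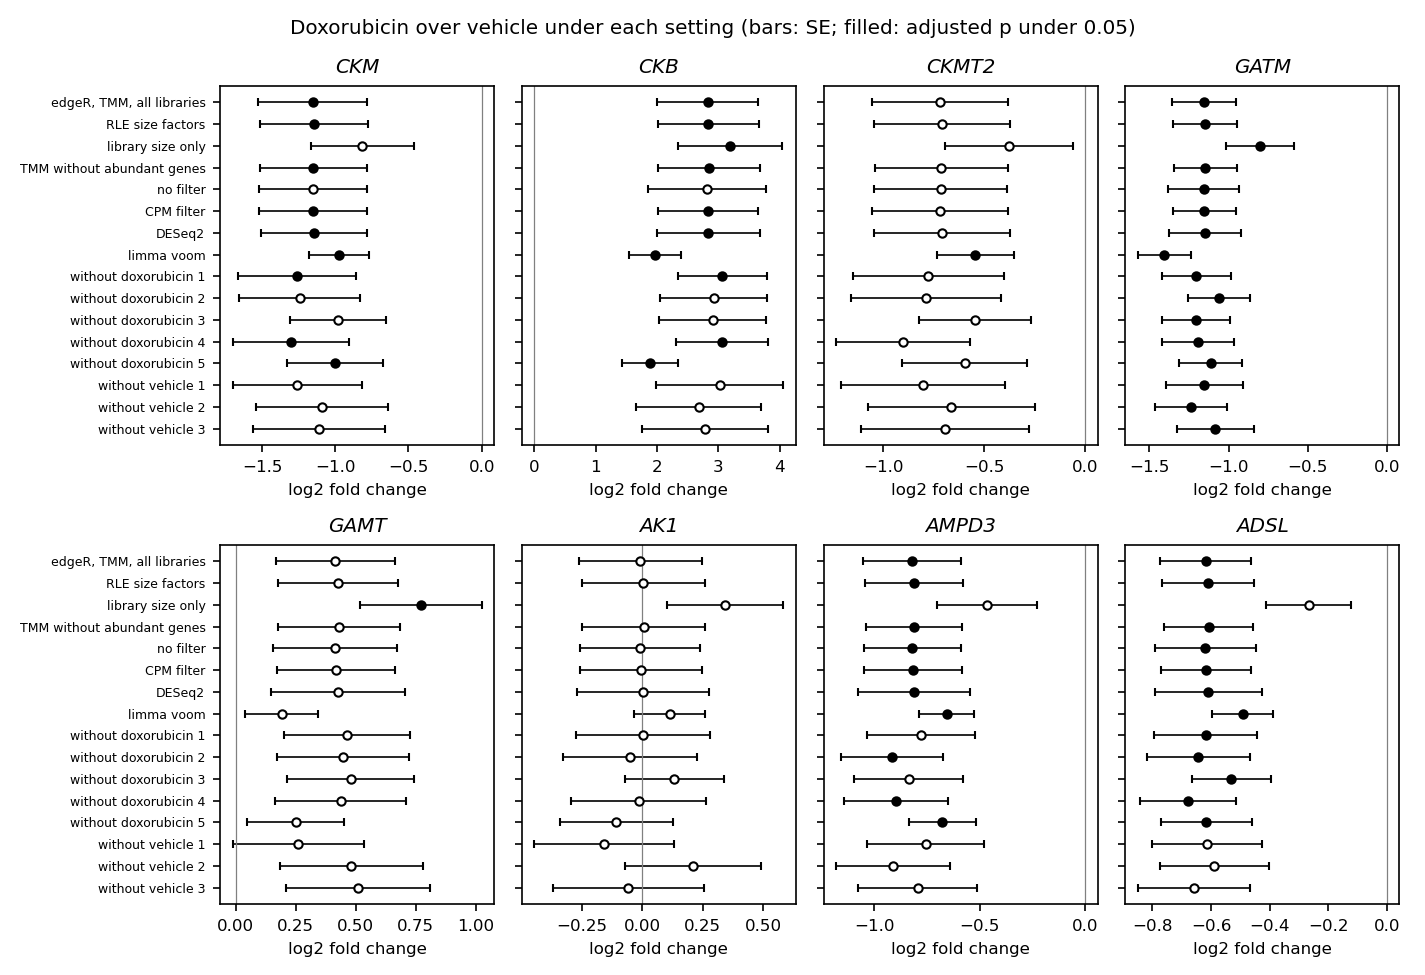
Log2 fold change (doxorubicin over vehicle) of the 8 genes with its SE under each scaling, filter and tool and without each library, filled points for an adjusted p under 0.05. GATM is filled in every row, and AK1 lies on both sides of 0.

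The genes whose levels followed those of CKM and CKB most closely within the groups were sought among 12208 named genes of 1 CPM or more, by Pearson correlation of log2 CPM over the 8 libraries after the mean of each group was removed. The libraries share depth and composition, and the highest of so many correlations over 8 libraries is large by selection, so these values are a description. For CKM they were GSTZ1 (r = 0.987), PLA2G7 (r = 0.987) and CAMK2A (r = 0.986). CAMK2A had 439, 448, 215, 508 and 237 CPM in doxorubicin 1 to 5, and 377, 402 and 385 CPM in vehicle 1 to 3. It was low in doxorubicin 3 and 5 as CKM was, while its log2 fold change was −0.07 (adjusted p = 0.878). For CKB they were RNF146 (r = 0.993), COL1A1 (r = 0.991) and NOV (r = 0.988). COL1A1, a chain of type I collagen, had 524, 1389, 1781, 466 and 6607 CPM in doxorubicin 1 to 5, and 141, 96.6 and 121 CPM in vehicle 1 to 3. COL1A1 was highest in doxorubicin 5, then 3 and 2, the order seen for CKB. RNF146, a ubiquitin ligase, varied much less, with 56.1 to 69.1 CPM after doxorubicin and 62.1 to 64.5 CPM in vehicle.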

How the data were processed

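Heart RNA of 5 doxorubicin and 3 vehicle samples was sequenced from SMARTER mRNA libraries, per the labels' protocols. The authors deposited raw counts per gene, 1 column per sample, matched to the samples by title. The sources used here do not give the aligner, counter or strand setting, so overlapping, antisense and near-identical genes are uncertain. Coordinates of the 8 genes in the deposited table matched RefSeq on Sscrofa11.1.

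Counts were tested in R 4.3.3 with edgeR 4.0.16 (filterByExpr with minimum count 10 and minimum total 15, TMM, robust quasi-likelihood test, treatment as the only term, two-sided). The SE of a fold change was taken as its size over the root of F. The fit was tested on simulated counts. Ratios were log2 of counts plus 0.5, compared by exact permutation over 56 splits. Per-kb levels use the deposited gene length. Alternatives were other scalings and filters, DESeq2 1.42.0, limma 3.58.1 voom, a replicate block and leaving out each library.

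The genes and lists were chosen with earlier results of these data known. Named were the 8 genes, 10 relatives whatever their values (among them SLC6A8, CKMT1A, AK3, AK4, AMPD1, AMPD2, ADSSL1, ADSS, SLC25A4), up to 4 called genes per list, and the 3 genes most like CKM and CKB. Levels against cardiomyocyte markers, the shares of pools without length correction, and IMPDH2 beside IMPDH1 were added after the data were seen. The values of 1 relative are not reported here.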

Additional observations from a re-analysis of the deposited data

Results flagged for a closer look

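Within the 5 doxorubicin libraries, 46 sets of values were examined for a single library lying far from the rest (Dixon's gap over range above 0.71), and 6 were found, all in doxorubicin 5. For independent values with a normal spread, chance gives about 1 in 20 such sets. These sets come from the same 5 libraries and share genes, so the 6 cannot be set against that rate. CKB was at 282 CPM there, with the next library at 76.1 CPM. GAMT was at 11.9 CPM, with the next at 7.73 CPM. AK4 was at 56.7 CPM, with the next at 9.30 CPM. APRT was at 40.3 CPM, with the next at 22.5 CPM. ADSSL1 was the only low one of the 6, at 43.4 CPM, with the next at 82.5 CPM. The fibroblast markers summed to 31633 CPM, with the next at 7537 CPM. The same library had the lowest share of counts from mitochondrial DNA, 8.70%, against 12.3% to 16.6% in the other doxorubicin libraries and 23.6% to 27.5% in vehicle. The part of these measures in the values of CKB, GAMT, AK4, APRT and ADSSL1 was not tested.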

How the results depend on the processing

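Of the 8 genes, the direction of all but AK1 held under the 16 other settings. AK1 turned positive with RLE factors (0.00302), library size only (0.34), TMM without abundant genes (0.00469), DESeq2 (0.00301) and limma voom (0.11), and ranged from −0.16 to 0.21 without 1 library. ADSS turned with limma (−0.18), the replicate block (−0.041) and without 1 library (−0.056 to 0.30), and SLC25A4 with library size only (0.000174). With library size only 4093 genes rose and 499 fell, and among the 8 genes 2 rose and 1 fell. That setting also turned the summed ventricular (0.32), nerve (0.092) and skeletal muscle (0.20) markers. Without a filter 0 of the 8 rose by edgeR (1 at an unadjusted p under 0.05, and 1 by DESeq2 and limma with the filter). Limma voom called 8051 genes, 4030 higher and 4021 lower. Without 1 library 649 to 4737 genes were called, 334 to 2472 higher and 315 to 2265 lower, and 0 to 1 of the 8 rose and 1 to 4 fell; the cause was not tested. Same-numbered libraries did not deviate together (r = 0.043, 0.0020 and −0.0031). With so few libraries this cannot exclude a weak pairing by number. With the replicate block 3653 genes were called, and CKM was not (adjusted p = 0.0563). The ratio of ADSL to ADSSL1 turned with the paired difference (−0.17) and ranged from −0.095 to 0.24 without 1 library. No ratio passed after adjustment in any setting. Without 1 library, or with the paired difference of replicates 1 to 3, these two-sided permutation tests cannot reach 0.05. With all 8 libraries the smallest possible p, 0.0357, stays above 0.05 after adjustment unless nearly all 5 ratios reach it. These failures to pass therefore say little about the ratios. AMPD1 and CKMT1A were too rarely read to test. Without any 1 of the 3 vehicle libraries, GATM was the only 1 of the 5 called genes among the 8 to pass.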

Other observations

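Markers of cell types not described above also differed between the groups. T and NK lymphocyte markers summed to 28.3 to 56.5 CPM after doxorubicin and 10.7 to 16.9 CPM in vehicle, and 7 of 10 rose, among them CD3E, a chain of the T cell receptor complex, and CD8A, the co-receptor of cytotoxic T cells. Adipocyte markers summed to 61.9 to 299 CPM after doxorubicin and 394 to 552 CPM in vehicle, where LEP was at 0. Of 6 tested, ADIPOQ, the hormone adiponectin, and FABP4, a fatty acid carrier, fell. Endothelial markers summed to 615 to 1755 CPM after doxorubicin and 1389 to 1788 CPM in vehicle, with EGFL7 higher, EMCN lower and 8 not passing. Ventricular markers summed to 6054 to 9519 CPM after doxorubicin and 7040 to 10488 CPM in vehicle, and 1 of 4, HEY2, fell. Atrial markers summed to 45.3 to 183 CPM after doxorubicin and 38.6 to 45.0 CPM in vehicle, and 1 of 5 tested, MYL4, rose. The part of these cell types in the levels of the 8 genes was not tested.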
